A study of Homo sapiens with 11 samples.

Results

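The clustered histone genes are the protein-coding genes of the HIST1, HIST2, HIST3 and HIST4 loci, chosen here by gene name and by a minimum of 10 counts summed over the 11 libraries. Of 58735 genes listed, 71 protein-coding genes matched the names, and 51 of them reached that minimum. These 51 members comprised 4 H1, 10 H2A, 14 H2B, 11 H3 and 12 H4 genes, with 37 in the HIST1 locus on chromosome 6, 10 in HIST2 and 3 in HIST3 on chromosome 1, and 1 in HIST4 on chromosome 12. The members HIST1H3C, HIST1H2BG and HIST1H2AE stood at the minimum with 10 counts, and HIST2H2AB and HIST1H2BB fell just short with 9. Of the 20 genes left out, 12 had no count in any library, which allows up to 3 counts per library, and 8 had from 1 to 9.

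Poly(A)-selected RNA was measured in HEK293T cells, an established human embryonic kidney line that carries the SV40 large T antigen, 48 h after transfection with siRNA. The groups were siNAE1 (50 nM, n = 3), siUBE2M (70 nM, n = 3), siURM1 (60 nM, n = 2) and control (n = 3), all labelled as biological replicates of the same line. A control siRNA is named for the control libraries without a dose, and HKWT is used for them elsewhere in the source text, so a control siRNA and untransfected cells cannot be told apart. NAE1 is a subunit of the enzyme that activates the ubiquitin-like protein NEDD8, UBE2M is a NEDD8-conjugating enzyme, and URM1 is a ubiquitin-like protein that also carries sulfur for tRNA modification.

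The libraries held from 11733163 to 16321391 counts. The targeted genes were low in the libraries that bear their names. NAE1 measured 102 ± 5.89 CPM (counts scaled to a common library size, mean ± SD, n = 3) in control and 39.8 ± 4.04 (n = 3) in siNAE1. UBE2M measured 265 ± 2.68 CPM (n = 3) in control and 16.8 ± 2.02 (n = 3) in siUBE2M, and URM1 measured 53.6 ± 2.32 CPM (n = 3) in control and 15.3 ± 0.25 (n = 2) in siURM1. VIM and the neurofilament gene NEFM, both known in HEK293 cells, were well detected, and 3 of the 4 genes fixed as markers of other cell types were not tested for low counts; the fourth, the fibroblast collagen gene COL1A1, stood between 18.2 and 27.4 CPM as a group mean.

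Core histones of the H2A, H2B, H3 and H4 families form the protein spool of the nucleosome, and H1 linker histones bind where DNA enters and leaves it. Most of this protein is made in S phase from the clustered genes, which lack introns and sit close together, often as divergent pairs that share a promoter. Their main messenger RNAs end not in a poly(A) tail but after a conserved stem-loop, which the protein SLBP binds and the U7 snRNP uses to direct cleavage. Some of these genes can also give a longer, polyadenylated RNA from a site further downstream, as is known from differentiated cells. Poly(A) selection therefore selects against the main form, though some RNA without a tail was counted, as given below. The counts are those of RNA that passed the selection. How much of each gene's RNA carried a tail was not measured.

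The stem-loop was looked for because it takes the place of a poly(A) tail in most RNAs of clustered histone genes. In the GENCODE v44 annotation of GRCh38, 47 of the 51 members had a stop codon with a window of 300 bases after it. The stem-loop was searched on the strand of the gene as the 16 bases of the known histone stem-loop, with any base allowed at the middle positions of both stem arms and at 1 position of the loop. It stood in 46 of these 47 windows and in 70 of all 19924 windows of protein-coding genes (0.351%). Outside the name rule, 7 of 19858 windows (0.035%) held it, and 4 of all windows held it on the opposite strand. It began from 23 to 58 bases after the stop codon, with a median of 36. HIST1H3E was the 1 member whose window did not hold these letters. HIST1H3B, HIST2H2AA4, HIST2H2AA3 and HIST1H3C were not matched.

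Among the members 6 different stem-loops occurred, of which the commonest, that of HIST3H2A, HIST1H1C and HIST1H2AC below, was shared by 26 members, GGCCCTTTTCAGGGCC by 8, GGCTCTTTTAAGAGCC by 6 and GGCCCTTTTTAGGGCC by 4. The 16 letters are shown in capitals with 5 bases on each side, read 5′ to 3′ on the gene strand, for the members that lead the results below. The stems are the pairing outer letters. HIST1H2BK and HIST2H2AC differ from the commonest form in the loop, HIST1H4H and HIST1H4E in the stem, and HIST1H4I in both.
HIST1H2BK, chr6:27146361-27146386, minus strand: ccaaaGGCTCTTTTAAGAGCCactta
HIST3H2A, chr1:228457364-228457389, minus strand: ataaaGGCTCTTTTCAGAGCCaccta
HIST1H1C, chr6:26055739-26055764, minus strand: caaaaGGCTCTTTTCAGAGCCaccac
HIST1H4I, chr6:27139649-27139674, plus strand: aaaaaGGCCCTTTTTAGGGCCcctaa
HIST1H2AC, chr6:26124664-26124689, plus strand: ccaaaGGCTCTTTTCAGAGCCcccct
HIST2H2AC, chr1:149887386-149887411, plus strand: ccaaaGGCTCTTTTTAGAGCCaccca
HIST1H4H, chr6:26285126-26285151, minus strand: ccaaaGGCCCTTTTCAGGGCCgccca
HIST1H4E, chr6:26204996-26205021, plus strand: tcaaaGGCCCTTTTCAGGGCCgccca

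The gene models used for counting reached different distances past this stem-loop. The listed span ran at least 100 bases past it in 17 of the 24 tested members that hold it, and in 6 of the 22 such members that were not tested. In the remaining tested members the span ended before the last base of the stem-loop in 6, HIST1H2BK and HIST1H1C among them, and 39 bases past it in HIST1H2AI. The span of HIST1H2BK ended 52 bases before the last base of the stem-loop and that of HIST1H1C 43 bases before it, so for these genes only reads in the coding region were counted. The span of HIST3H2A ran 390 bases past it and that of HIST1H2AC 14432 bases.

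Promoter sequence was compared because the families share known elements. For 43 members a promoter was found in RefSeq (GRCh38.p14). The letters ATTTGCAT, the octamer bound by OCT1, stood on either strand in 10 of 14 H2B and 5 of 7 H2A promoters and in no H1, H3 or H4 promoter, against 1.663% of all 27305 promoters. The promoters of divergent H2A and H2B neighbours nearly coincide, so matches in them were counted for both genes. The octamers of HIST2H2AC, HIST1H2AG, HIST1H2AC and HIST1H2AE are also those of HIST2H2BE, HIST1H2BJ, HIST1H2BC and HIST1H2BG. The letters AAACACA, known from H1 promoters, stood in all 4 H1 promoters and in no other member, against 4.948% of all promoters. CCAAT stood in 34 of the 43, with 1 of 10 among the H4 genes, against 33.038% of all promoters. TATAAA stood in 29 of the 43, against 11.133%. Matches of different motifs overlapped in 0 of the member promoters. A match of letters is a description and shows no binding.

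The 250 bases before the transcription start are shown for members of differing behaviour, with matches of the 4 motifs on either strand in capitals. HIST1H2BK and HIST1H2AC carry the octamer and HIST1H1C the H1 letters, while HIST1H4H carries none of the motifs searched.
HIST1H2BK, chr6:27146859-27147108, minus strand: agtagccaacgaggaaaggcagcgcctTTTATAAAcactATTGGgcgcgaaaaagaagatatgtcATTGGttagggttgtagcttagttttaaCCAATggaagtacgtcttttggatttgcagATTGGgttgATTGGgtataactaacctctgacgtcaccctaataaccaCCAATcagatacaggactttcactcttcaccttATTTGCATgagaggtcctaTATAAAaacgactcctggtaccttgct
HIST1H1C, chr6:26056471-26056720, minus strand: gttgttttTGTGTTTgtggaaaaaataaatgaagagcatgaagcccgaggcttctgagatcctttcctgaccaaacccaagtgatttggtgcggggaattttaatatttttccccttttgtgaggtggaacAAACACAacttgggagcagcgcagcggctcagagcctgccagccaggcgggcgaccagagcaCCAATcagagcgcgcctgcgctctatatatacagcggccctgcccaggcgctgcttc
HIST3H2A, chr1:228457874-228458123, minus strand: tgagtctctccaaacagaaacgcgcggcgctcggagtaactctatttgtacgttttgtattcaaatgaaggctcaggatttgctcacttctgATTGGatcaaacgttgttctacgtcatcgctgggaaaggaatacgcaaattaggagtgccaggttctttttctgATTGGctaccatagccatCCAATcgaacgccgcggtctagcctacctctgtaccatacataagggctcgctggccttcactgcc
HIST1H2AC, chr6:26123922-26124171, plus strand: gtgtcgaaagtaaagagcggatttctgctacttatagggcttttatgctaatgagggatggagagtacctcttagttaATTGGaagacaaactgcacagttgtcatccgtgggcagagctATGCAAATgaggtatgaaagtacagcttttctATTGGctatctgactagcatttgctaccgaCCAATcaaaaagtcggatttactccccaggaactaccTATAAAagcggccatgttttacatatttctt
HIST1H3E, chr6:26223928-26224177, plus strand: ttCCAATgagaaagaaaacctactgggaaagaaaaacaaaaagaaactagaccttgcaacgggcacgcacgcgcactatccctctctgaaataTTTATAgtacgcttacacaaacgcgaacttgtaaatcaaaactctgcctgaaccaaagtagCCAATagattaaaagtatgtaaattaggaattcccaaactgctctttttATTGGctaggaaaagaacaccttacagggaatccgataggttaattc
HIST1H4H, chr6:26285535-26285784, minus strand: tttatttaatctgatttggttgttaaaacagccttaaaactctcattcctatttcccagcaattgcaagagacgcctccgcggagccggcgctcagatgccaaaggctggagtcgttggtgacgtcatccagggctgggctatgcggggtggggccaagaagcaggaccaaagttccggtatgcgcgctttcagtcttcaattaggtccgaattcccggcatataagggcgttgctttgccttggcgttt

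Few members carried most of the signal. The members together took between 0.0143% (siUBE2M replicate 2) and 0.0229% (siNAE1 replicate 3) of the counts of a library. Their counts ran from 1952 in siUBE2M replicate 1 to 3283 in siURM1 replicate 1. HIST1H2BK held 22.7% of all member counts, HIST3H2A 19.6%, HIST1H4I 11.7% and HIST1H1C 9.87%, and these 4 genes together held 63.9%. The median member had 77 counts over all libraries and 27 members had fewer than 100. Of the 51 members, 26 passed the filter on low counts and were tested. The other 25 had at most 19 counts in any library, and were left out of the test. Without the count filter HIST1H2AH was called higher in siNAE1 than in control (log2 fold change 2.51, edgeR adjusted p = 0.0240). Leaving out siURM1 replicate 1 or 2 admitted more genes to the test, and HIST1H2AH (2.50, edgeR adjusted p = 0.0188 and 2.51, adjusted p = 0.0193) and HIST3H3 (2.14, adjusted p = 0.0460 and 2.14, adjusted p = 0.0469) were then called higher in siNAE1. The tested members were 2 H1, 5 H2A, 10 H2B, 3 H3 and 6 H4 genes.

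**Figure D1:**
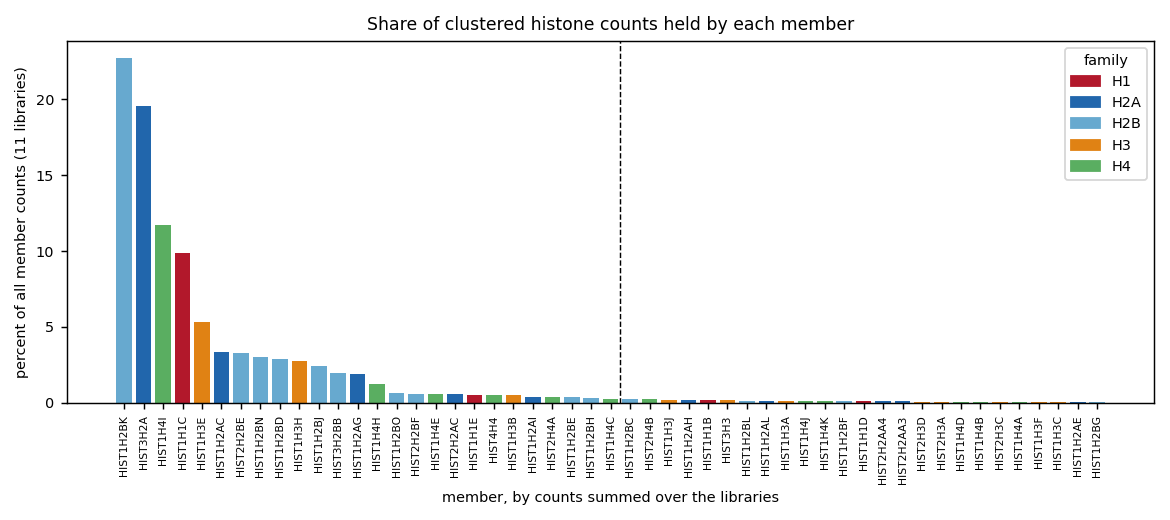
Percent of all member counts, summed over the 11 libraries, held by each of the 51 members (bars, coloured by histone family), with the 26 tested members left of the dashed line. HIST1H2BK and HIST3H2A hold 22.7% and 19.6%, and every member right of the line holds at most 0.218%.

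On the FPKM scale, which divides by the listed gene length so that levels can be compared between genes, HIST1H2BK was highest in control at 79.9 ± 7.48 (SD, n = 3). Its listed length of 381 bases is the coding region alone, against 495 bases in GENCODE v44, and a shorter length raises an FPKM value. HIST1H1C followed in control at 24.6 ± 3.25 FPKM, HIST3H2A at 22.5 ± 0.25 FPKM and HIST1H4I at 13.9 ± 0.71 FPKM (n = 3 each). The means of HIST1H1C and HIST3H2A were closer than their spread. The listed length of HIST1H4I was 1294 bases against 397 in GENCODE v44, and that of HIST3H2A was 895 against 1850. A longer length lowers an FPKM value, so the order of these genes depends on the gene models. By CPM, HIST1H4I at 18.2 stood above HIST1H1C at 15.9 in control. HIST1H2BD at 6.91 ± 1.33, HIST1H2AC at 5.71 ± 0.37 and HIST1H3E at 5.03 ± 0.68 FPKM came next in control, and the order of these neighbours was not separated by their spread. HIST1H2BJ stood at 4.32 ± 0.40 FPKM and HIST1H3H at 3.51 ± 0.16 FPKM in control. In siURM1 HIST3H2A reached 68.6 ± 2.88 FPKM and HIST1H1C 38.5 ± 4.15 FPKM (n = 2 each), beside HIST1H2BK at 92.4 ± 1.36 FPKM.

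The sum over all 51 members was higher in siNAE1 and siURM1 than in control and within the control range or slightly below it in siUBE2M. In bulk RNA, fewer cells that express a gene and less of its RNA per cell cannot be told apart. The members summed to 149, 165 and 166 CPM in the control libraries, to 221, 229 and 241 CPM in siNAE1, to 144, 140 and 155 CPM in siUBE2M, and to 205 and 217 CPM in siURM1. All siNAE1 and siURM1 libraries lay above all control libraries, and the siUBE2M range overlapped that of control. As a percent of the control mean, siNAE1 stood at 143.9%, siUBE2M at 91.4% and siURM1 at 131.8%. The sums are given as a description with no test, since the members were chosen with earlier results of these data known. Without HIST1H2BK and HIST3H2A the log2 ratio to control moved from 0.52 to 0.19 in siNAE1, from 0.40 to 0.06 in siURM1 and from -0.13 to -0.48 in siUBE2M.

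The family sums differed by group, and each was set by few genes. The 4 H1 genes summed to 17.4 ± 2.06 CPM in control (SD, n = 3), 27.0 ± 3.20 in siNAE1 (n = 3), 9.85 ± 1.62 in siUBE2M (n = 3) and 26.7 ± 2.48 in siURM1 (n = 2). Without HIST1H1C the other 3 H1 genes summed to 1.52 ± 0.27 CPM in control. The 10 H2A genes stood at 37.2 ± 0.87 CPM in control and 73.6 ± 2.22 in siURM1 (n = 2), which is 197.9% of control. HIST3H2A alone carried this difference, since the other 9 H2A genes summed to 16.9 ± 0.75 CPM in control, 10.6 ± 0.17 in siNAE1, 8.75 ± 0.31 in siUBE2M and 11.7 ± 0.35 in siURM1. The 14 H2B genes stood at 60.4 ± 3.92 CPM in control and 99.4 ± 2.89 in siNAE1 (n = 3), which is 164.5% of control. Most of this difference was HIST1H2BK, and the other 13 H2B genes summed to 29.7 ± 1.20 CPM in control and 32.9 ± 1.34 in siNAE1. The 11 H3 genes were at 19.6 ± 2.01 CPM in control and 12.9 ± 1.49 in siUBE2M (n = 3), and without HIST1H3E at 6.06 ± 0.24 and 6.75 ± 0.66. In siURM1 (n = 2) the H3 genes were at 16.1 ± 3.28 CPM, and without HIST1H3E at 10.4 ± 2.49. The 12 H4 genes were at 25.4 ± 2.05 CPM in control and 35.2 ± 1.11 in siNAE1 (n = 3), with siUBE2M at 23.8 ± 1.83 (n = 3). Without HIST1H4I the other 11 H4 genes were at 7.23 ± 1.22 CPM in control, 7.04 ± 0.59 in siNAE1 and 3.35 ± 0.37 in siUBE2M.

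**Figure D2:**
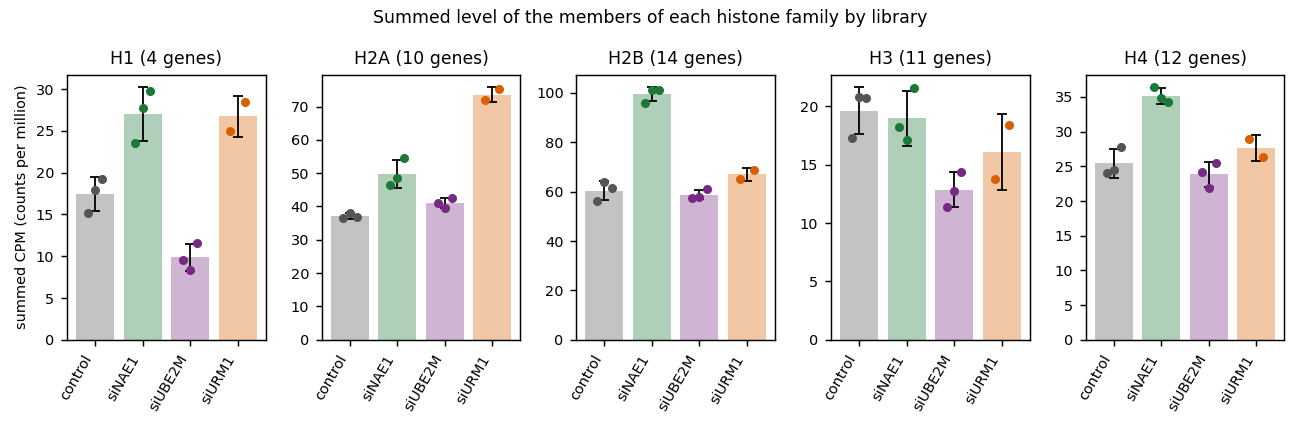
Summed CPM of the members of each histone family (vertical axis, from 0) in the 4 groups; points are libraries, bars are group means and whiskers are 1 SD. The H1 sum is 9.85 CPM in siUBE2M against 17.4 in control, H2A stands out in siURM1 at 73.6 and H2B in siNAE1 at 99.4.

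To ask which members changed, each knockdown was compared with control by edgeR's quasi-likelihood test over 18368 genes, and a gene was called at a Benjamini-Hochberg adjusted p under 0.05 with at least a 2-fold change. In siNAE1, 1 of the 26 tested members was called, HIST1H2BK, which was higher, while 13.9% of all genes tested were called (5.3% higher, 8.61% lower). In siUBE2M, 5 members were called, all lower, while 7.11% of all genes were called, 3.22% higher and 3.89% lower. In siURM1, 2 members were called higher and 1 lower, while 7.62% of all genes were called, 2.89% higher and 4.73% lower. The median log2 fold change of the 26 members was 0.04 in siNAE1, -0.44 in siUBE2M and 0.21 in siURM1, against medians of all genes tested of -0.0021, 0.0075 and -0.021. With scaling by total count only, the 1 call in siNAE1 was instead a lower one, HIST1H2AG at -1.085 (edgeR adjusted p = 0.000516), and HIST1H2BK fell short of 2-fold. Leaving out 1 library gave 1 to 3 called members in siNAE1. Without siNAE1 replicate 1, for example, HIST3H2A at 1.003 and HIST1H2AG at -1.209 were added. The siNAE1 median turned to -0.10 without siNAE1 replicate 3 and to -0.05 without control replicate 1. Without control replicate 3 the siUBE2M median moved to -0.13. In siURM1 the median was 0.08 without siURM1 replicate 2.

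At the adjusted p alone, 5 members were higher and 2 lower in siNAE1 where 54.7% of all genes passed (27.6% higher, 27.1% lower), 2 higher and 9 lower in siUBE2M where 45.3% passed (22.7% higher, 22.6% lower), and 5 higher and 4 lower in siURM1 where 41.6% passed (20.8% in each direction). These counts came from 26 tested members, and no test of the members against other genes was run. The 3 comparisons share the control libraries, so their values are given side by side.

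**Figure D3:**
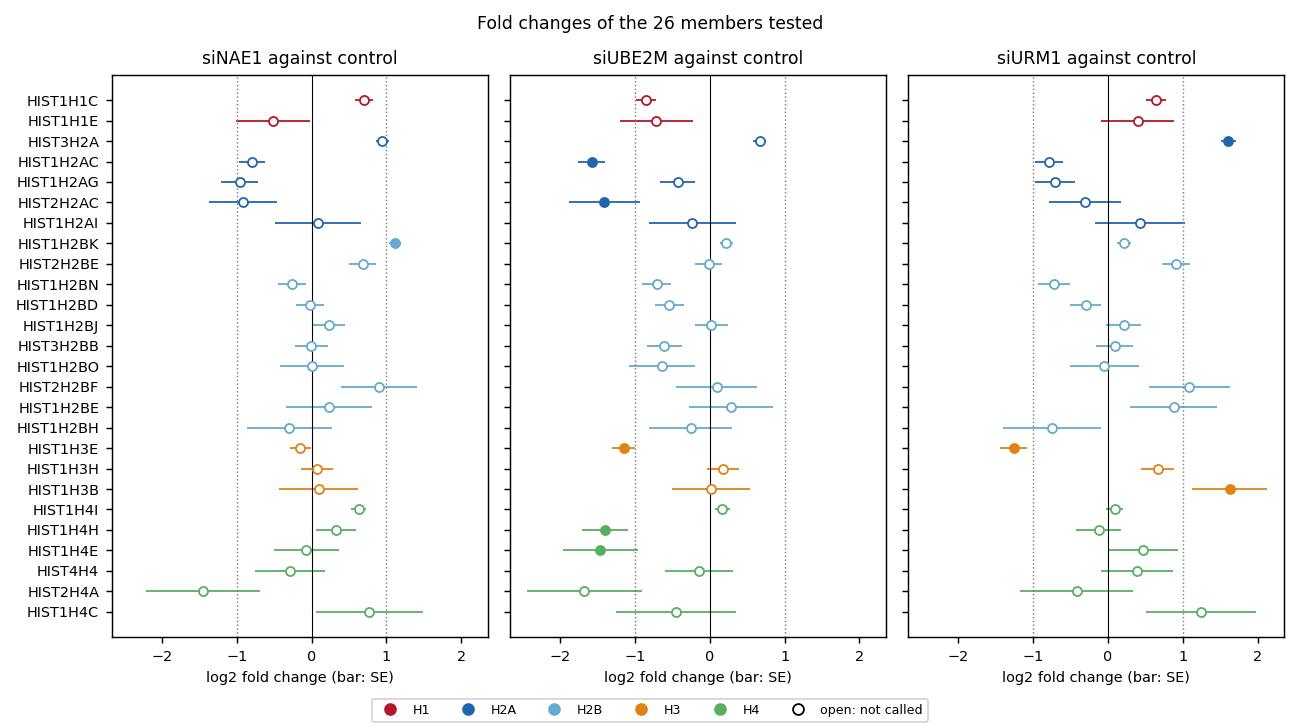
Log2 fold change against control (horizontal axis, bars are 1 SE, dotted lines at 2-fold) of the 26 tested members, ordered by family and counts, in siNAE1, siUBE2M and siURM1. Filled points are called. The called members lie right of 0 in siNAE1, left of 0 in siUBE2M and on both sides in siURM1.

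Among the H1 linker histones, HIST1H1C moved in opposite directions in siNAE1 and siUBE2M. HIST1H1C (ENSG00000187837, chr6:26055787-26056428, minus strand, GRCh38) encodes the linker histone H1.2. It measured 13.6, 16.7 and 17.4 CPM in control, 22.7, 26.6 and 28.1 in siNAE1, 8.76, 7.21 and 10.5 in siUBE2M, and 23.0 and 26.8 in siURM1. Every siNAE1 and siURM1 library lay above every control library and every siUBE2M library below. The log2 fold change was 0.70 ± 0.12 (SE) in siNAE1 (edgeR adjusted p = 1.33e-05), -0.85 ± 0.14 in siUBE2M (adjusted p = 4.43e-06) and 0.65 ± 0.13 in siURM1 (adjusted p = 0.000201), none of them past 2-fold. HIST1H1E, which encodes H1.4, was low at 0.80 to 1.26 CPM in control, and its log2 fold changes of -0.51 ± 0.49, -0.72 ± 0.49 and 0.40 ± 0.49 did not pass. HIST1H1B, the gene of H1.5, and HIST1H1D, that of H1.3, had at most 9 and 5 counts in a library and were not tested.

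Of the H2A genes, HIST3H2A was higher in all knockdowns and HIST1H2AC lower in all. HIST3H2A (ENSG00000181218, chr1:228456979-228457873, minus strand) is the H2A gene of the HIST3 locus. It measured 20.2, 20.4 and 20.3 CPM in control, 36.0, 37.6 and 43.9 in siNAE1, 32.2, 30.4 and 34.0 in siUBE2M, and 60.1 and 63.7 in siURM1. No knockdown library reached down to the control range, and both siURM1 libraries lay above all others. The log2 fold change was 0.95 ± 0.09 in siNAE1 (edgeR adjusted p = 2.16e-10), 0.67 ± 0.09 in siUBE2M (adjusted p = 4.49e-07) and 1.61 ± 0.10 in siURM1 (adjusted p = 1.47e-14), the last of which was called.

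HIST1H2AC (ENSG00000180573, chr6:26124145-26139116, plus strand) measured 9.00, 10.1 and 9.65 CPM in control, 4.53, 6.57 and 5.38 in siNAE1, 3.61, 3.48 and 2.53 in siUBE2M, and 5.37 and 5.75 in siURM1. All knockdown libraries lay below all control libraries, with siUBE2M lowest. The log2 fold change was -0.80 ± 0.17 in siNAE1 (edgeR adjusted p = 0.000223), -1.58 ± 0.18 in siUBE2M (adjusted p = 1.80e-08), which was called, and -0.79 ± 0.19 in siURM1 (adjusted p = 0.00121). HIST2H2AC, the H2A gene beside HIST2H2BE, was called in siUBE2M at -1.41 ± 0.48 (adjusted p = 0.0155), with 1.99, 0.98 and 1.51 CPM in control and 0.81, 0.59 and 0.28 in siUBE2M. That call was lost without control replicate 1 (log2 fold change -1.14, adjusted p = 0.0907) and without siUBE2M replicate 3 (-1.10, adjusted p = 0.0822). HIST1H2AG fell by 0.96 on the log2 scale in siNAE1 (edgeR adjusted p = 0.00138) and by 0.70 in siURM1 (adjusted p = 0.0340). HIST1H2AI, of which 75.9% of read-length windows in the coding region are shared with another histone gene, passed in no comparison with control.

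Of the H2B genes, HIST1H2BK was the member called in siNAE1. HIST1H2BK (ENSG00000197903, chr6:27146418-27146798, minus strand) is an H2B gene known to give a polyadenylated RNA. It measured 27.7, 32.9 and 31.6 CPM in control, 61.8, 68.5 and 69.3 in siNAE1, 37.2, 34.0 and 36.2 in siUBE2M, and 35.9 and 35.1 in siURM1. The siNAE1 libraries stood above all others, and the siUBE2M and siURM1 libraries lay narrowly above control. The log2 fold change was 1.12 ± 0.08 in siNAE1 (edgeR adjusted p = 7.57e-13), 0.22 ± 0.09 in siUBE2M (adjusted p = 0.0349) and 0.21 ± 0.10 in siURM1 (adjusted p = 0.0777). With scaling by total count only, the siNAE1 value was 0.99 and fell short of 2-fold. The call was also lost when tested against the 2-fold threshold itself (edgeR's glmTreat, adjusted p = 0.357).

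HIST2H2BE, another H2B gene with a known polyadenylated form, measured 4.77, 4.67 and 4.35 CPM in control, 7.30, 7.97 and 6.82 in siNAE1, 4.12, 3.93 and 5.62 in siUBE2M, and 8.99 and 8.24 in siURM1. It rose by 0.68 ± 0.18 on the log2 scale in siNAE1 (edgeR adjusted p = 0.00141) and by 0.90 ± 0.19 in siURM1 (adjusted p = 0.0002), and its value in siUBE2M was -0.01 ± 0.18. HIST1H2BN fell by 0.71 in siUBE2M (adjusted p = 0.00265) and by 0.72 in siURM1 (adjusted p = 0.00696), and its listed span overlaps HIST1H2AL on the same strand. HIST1H2BD fell by 0.54 in siUBE2M (adjusted p = 0.0212), although its siUBE2M and control libraries overlapped, and HIST3H2BB fell by 0.61 (adjusted p = 0.0333). The other H2B genes tested, HIST1H2BJ, HIST1H2BO, HIST2H2BF, HIST1H2BE and HIST1H2BH, passed in no comparison with control. HIST1H2BC was not tested, at up to 14 counts in a library.

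The H3 genes with enough counts were HIST1H3E, HIST1H3H and HIST1H3B, and they behaved differently from one another. HIST1H3E (ENSG00000274750, chr6:26224199-26227473, plus strand), the member whose window lacked the stem-loop letters, measured 11.5, 14.6 and 14.6 CPM in control, 11.6, 11.5 and 13.6 in siNAE1, 5.38, 5.44 and 7.51 in siUBE2M, and 5.12 and 6.23 in siURM1. The siUBE2M and siURM1 libraries lay below all others, and siNAE1 overlapped control. The log2 fold change was -0.15 ± 0.14 in siNAE1 (edgeR adjusted p = 0.386), -1.15 ± 0.15 in siUBE2M (adjusted p = 2.41e-07) and -1.26 ± 0.18 in siURM1 (adjusted p = 6.62e-07). The last 2 were called. Both calls were lost when tested against the 2-fold threshold itself (edgeR's glmTreat). They were also lost on log2(FPKM + 1) with limma, at -0.89 in siUBE2M and -0.96 in siURM1.

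HIST1H3B measured 0.78, 0.61 and 0.50 CPM in control, 0.31, 0.77 and 0.99 in siNAE1, 0.37, 1.05 and 0.49 in siUBE2M, and 1.62 and 2.36 in siURM1. Both siURM1 libraries lay above the rest. It was called in siURM1 at 1.63 ± 0.50 on the log2 scale (edgeR adjusted p = 0.00913), but without siURM1 replicate 2 the value was 1.34 and the adjusted p 0.125. HIST1H3H rose by 0.66 ± 0.22 in siURM1 (adjusted p = 0.0161), with 4.29, 4.24 and 4.61 CPM in control against 5.87 and 8.03.

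Of the H4 genes, HIST1H4I, by far the most abundant, rose in siNAE1 and HIST1H4H and HIST1H4E fell in siUBE2M. HIST1H4I measured 17.9, 17.5 and 19.2 CPM in control, 29.9, 27.1 and 27.4 in siNAE1, 21.3, 18.2 and 22.0 in siUBE2M, and 19.4 and 19.3 in siURM1. All siNAE1 libraries lay above all others. The log2 fold change was 0.63 ± 0.10 in siNAE1 (edgeR adjusted p = 3.45e-06), 0.17 ± 0.10 in siUBE2M (adjusted p = 0.186) and 0.09 ± 0.11 in siURM1 (adjusted p = 0.566).

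HIST1H4H (ENSG00000158406, chr6:26277609-26285638, minus strand) measured 2.60, 3.14 and 2.02 CPM in control, 3.15, 3.08 and 3.50 in siNAE1, 0.88, 1.18 and 0.84 in siUBE2M, and 2.25 and 2.49 in siURM1. The siUBE2M libraries lay below every other library. It was called in siUBE2M at -1.40 ± 0.31 on the log2 scale (edgeR adjusted p = 0.000388). This call was lost when tested against the 2-fold threshold itself (edgeR's glmTreat, adjusted p = 0.996) and on log2(FPKM + 1) with limma, at -0.59. HIST1H4E was called in siUBE2M at -1.46 ± 0.50 (adjusted p = 0.0168), with 0.66, 1.84 and 1.01 CPM in control and 0.59, 0.26 and 0.42 in siUBE2M. That call was lost without control replicate 2 (log2 fold change -0.97, adjusted p = 0.176) and without siUBE2M replicate 2 (-1.19, adjusted p = 0.0858). HIST2H4A, whose coding sequence is shared in full with another member, measured 0.30, 0.12 and 2.78 CPM in control, so that 1 control library held most of its control counts, and it passed in no comparison with all libraries and the low-count filter. In siUBE2M against control it was called lower without that filter (log2 fold change -1.68, edgeR adjusted p = 0.0192), without control replicate 1 (-2.12, adjusted p = 0.0272) and without control replicate 2 (-2.198, adjusted p = 0.0109). In siNAE1 against control it was called lower without the filter (-1.45, adjusted p = 0.0418), without control replicate 1 (-1.89, adjusted p = 0.0381), without control replicate 2 (-1.97, adjusted p = 0.0168) and without siNAE1 replicate 2 (-3.003, adjusted p = 0.0217). HIST4H4 and HIST1H4C did not pass either.

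**Figure D4:**
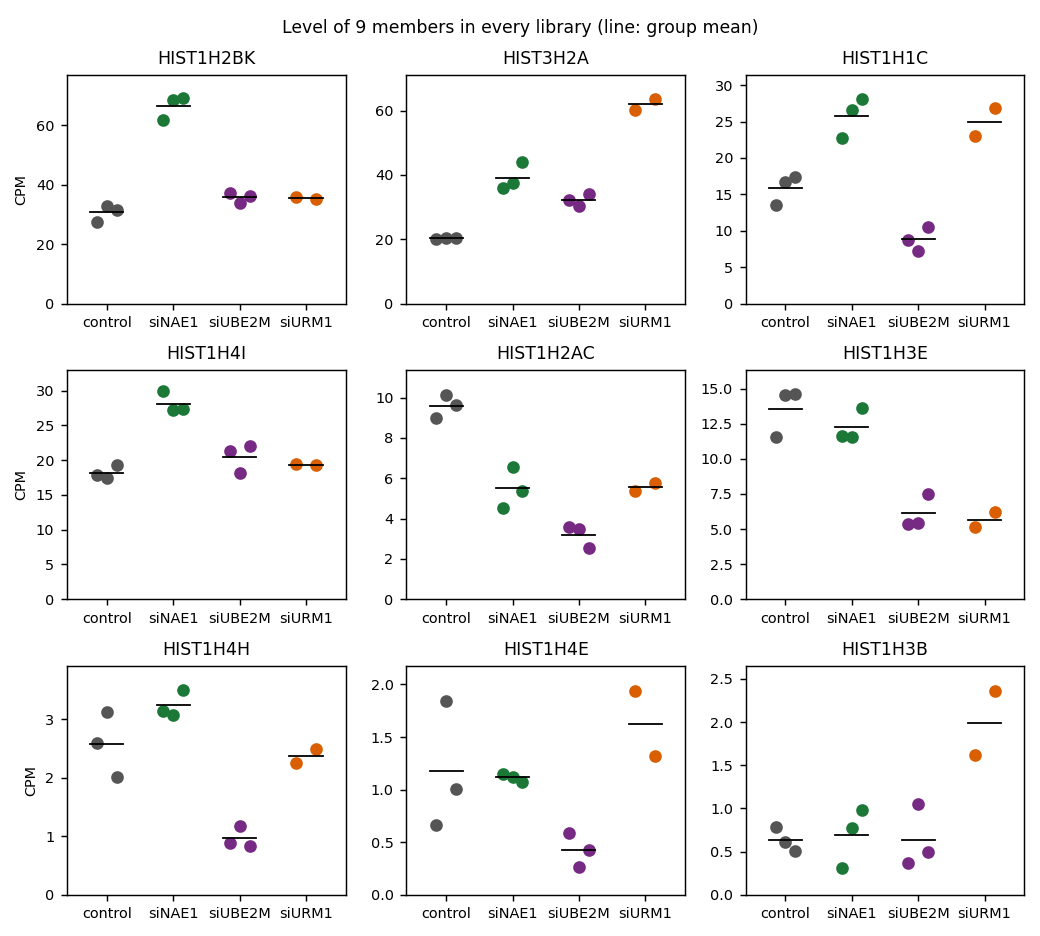
CPM of 9 members in every library (points) with the group mean (line), each panel on its own axis from 0. HIST1H2BK is set apart in siNAE1, HIST3H2A is highest in siURM1, and HIST1H2AC, HIST1H3E and HIST1H4H are low in siUBE2M.

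The knockdowns were also set against each other, with the same fit. Between siNAE1 and siUBE2M, 3 members were called, all higher in siNAE1, where 7.84% of all genes were called (2.85% higher, 4.99% lower). These were HIST1H4H at 1.72 ± 0.31 on the log2 scale (edgeR adjusted p = 2.77e-05), HIST1H1C at 1.55 ± 0.13 (adjusted p = 3.45e-11) and HIST1H4E at 1.39 ± 0.51 (adjusted p = 0.0272). At the adjusted p alone, 11 members were higher in siNAE1 and none lower, where 44.3% of all genes passed (22.7% higher, 21.6% lower), and the median over the members was 0.48. Leaving out any 1 of siNAE1 replicates 1 and 2 and siUBE2M replicates 2 and 3 ended the call of HIST1H4E, with adjusted p of 0.0558, 0.0539, 0.117 and 0.0542.

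Between siNAE1 and siURM1, HIST1H3E was called higher in siNAE1 at 1.11 ± 0.18 (edgeR adjusted p = 8.53e-06) and HIST1H3B lower at -1.53 ± 0.51 (adjusted p = 0.0178), where 6.76% of all genes were called (3.34% higher, 3.41% lower). HIST1H3E came to 0.97 without siURM1 replicate 1, under 2-fold, and HIST1H3B was lost without siNAE1 replicate 1 (-1.18, adjusted p = 0.0882) and without siURM1 replicate 2 (adjusted p = 0.174). HIST1H2BK stood 0.91 ± 0.09 higher in siNAE1 (adjusted p = 3.46e-09) and HIST3H2A 0.66 ± 0.09 lower (adjusted p = 9.89e-07). Between siUBE2M and siURM1, 4 members were called, all lower in siUBE2M, where 5.41% of all genes were called (3.45% higher, 1.95% lower). They were HIST1H4E at -1.94 ± 0.52 (adjusted p = 0.00415), HIST1H3B at -1.61 ± 0.51 (adjusted p = 0.0133), HIST1H1C at -1.50 ± 0.14 (adjusted p = 6.91e-10) and HIST1H4H at -1.28 ± 0.34 (adjusted p = 0.00405), and the median over the members was -0.68. At the adjusted p alone, 8 members were lower in siUBE2M and none higher, where 35% of all genes passed (16.7% higher, 18.3% lower), and between siNAE1 and siURM1 3 were higher and 3 lower, where 38.6% passed (19.5% higher, 19.1% lower). HIST1H4E was lost without siURM1 replicate 1 (adjusted p = 0.0754), and HIST1H3B without siUBE2M replicate 1 (adjusted p = 0.0637) and without siURM1 replicate 2 (adjusted p = 0.153).

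The fold changes of divergent neighbours were set side by side. Of 12 pairs of clustered histone genes on opposite strands with starts within 1000 bases of each other, 3 had both genes tested, and these were divergent. The pairs HIST2H2AB with HIST2H2AC and HIST1H2AK with HIST1H2BN were not divergent, since the plus-strand gene starts before the minus-strand gene does. HIST1H2BO was paired with both HIST1H3J and HIST1H2AM. HIST3H2A and HIST3H2BB start 234 bases apart, and against HIST3H2A's 0.95, 0.67 and 1.61 the log2 fold changes of HIST3H2BB were 0.00 ± 0.23 in siNAE1, -0.61 ± 0.23 in siUBE2M and 0.09 ± 0.25 in siURM1. HIST2H2BE and HIST2H2AC start 323 bases apart, with 0.68, -0.01 and 0.90 for the first and -0.92 ± 0.46, -1.41 ± 0.48 and -0.30 ± 0.48 for the second. HIST1H2BJ and HIST1H2AG start 292 bases apart, with 0.23 ± 0.22, 0.02 ± 0.22 and 0.21 ± 0.24 for the first and -0.96 ± 0.25, -0.43 ± 0.23 and -0.70 ± 0.27 for the second. In each pair the same gene had the higher log2 fold change in all 3 knockdowns, which share their controls, and the difference within a pair was not tested.

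The sums over members differed between shorter and longer gene models. Of the 51 members, 31 had a listed length under 1000 bases and 20 had 1000 or more. The shorter models summed to between 79.1 and 89.3 CPM in control, 141 to 161 in siNAE1, 88.8 to 94.3 in siUBE2M and 139 to 147 in siURM1. The longer models summed to between 70.0 and 77.3 CPM in control, 76.4 to 80.1 in siNAE1, 51.5 to 60.5 in siUBE2M and 65.6 to 70.1 in siURM1. Of the members called lower in siUBE2M, 4 of 5 had longer models, among 15 tested, and the 1 shorter was HIST2H2AC, among 11 tested. Per gene, the median log2 fold changes of the shorter and longer tested models were 0.10 and -0.07 in siNAE1 and -0.45 and -0.43 in siUBE2M. In siURM1 they were 0.40 and 0.09. HIST1H2BK and HIST3H2A fall among the shorter models, and the part of length in these values was not tested.

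A list of 8 clustered histone genes known to give polyadenylated RNA was read beside the rest: HIST1H1C, HIST1H2AC, HIST1H2BC, HIST1H2BD, HIST1H2BK, HIST2H2BE, HIST3H2A and HIST4H4. It held HIST1H2BK, HIST3H2A and HIST1H1C but not HIST1H4I or HIST1H3E, and summed to between 81.3 and 92.9 CPM in control, 140 to 161 in siNAE1, 85.0 to 93.6 in siUBE2M and 140 to 146 in siURM1. Of its 7 tested genes, 4 were higher and 1 lower at the adjusted p in siNAE1, 2 higher and 3 lower in siUBE2M, and 3 higher and 1 lower in siURM1, where 54.7%, 45.3% and 41.6% of all genes passed. The median log2 fold change of the 7 was 0.68, -0.14 and 0.38.

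The factors that act on the clustered histone genes and their RNA were read as a list. SLBP, which binds the stem-loop, measured 69.2 ± 2.11 CPM in control, 120 ± 5.35 in siNAE1, 88.7 ± 4.31 in siUBE2M (n = 3 each) and 109 ± 3.47 in siURM1 (n = 2). It rose by 0.80 on the log2 scale in siNAE1 (edgeR adjusted p = 1.04e-11), 0.36 in siUBE2M (adjusted p = 5.38e-05) and 0.65 in siURM1 (adjusted p = 1.47e-08). LSM11, a part of the U7 snRNP, rose by 0.52 in siUBE2M (adjusted p = 1.96e-05) and 0.81 in siURM1 (adjusted p = 6.16e-08), with 0.10 in siNAE1 (adjusted p = 0.364). LSM10, its partner, fell by 0.42 in siUBE2M (adjusted p = 0.000134) and by 0.30 in siURM1 (adjusted p = 0.0109).

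NPAT, the coactivator of clustered histone transcription, rose by 0.48 in siUBE2M (edgeR adjusted p = 0.00015), with 0.14 in siNAE1 and -0.15 in siURM1. CASP8AP2, a protein of the histone locus body, fell by 0.50 in siNAE1 (adjusted p = 7.58e-06) and by 0.53 in siURM1 (adjusted p = 3.11e-05), with 0.08 in siUBE2M. ZNF473, a zinc finger protein that associates with the U7 snRNP, fell by 0.36 in siURM1 (adjusted p = 0.0041), and HINFP, a regulator of H4 genes, rose by 0.31 in siUBE2M (adjusted p = 0.00362). Of the 27 genes of 3′ end processing and the locus body, all tested, 12 rose and 5 fell at the adjusted p in siNAE1, 11 and 6 in siUBE2M, and 7 and 6 in siURM1, where 54.7%, 45.3% and 41.6% of all genes passed, with medians of 0.14, 0.06 and -0.10. The Sm protein gene SNRPD3, at 1.11 in siNAE1 (adjusted p = 6.30e-14), was the 1 of them called, while 5.3% of all genes were called higher in siNAE1. None was called in siUBE2M or siURM1 by edgeR, where 17 and 13 passed the adjusted p alone, 18 and 16 had an unadjusted p under 0.05, and 7.11% and 7.62% of all genes were called. The SNRPD3 call was lost with scaling by total counts alone (log2 fold change 0.99) and when tested against the 2-fold threshold itself (edgeR's glmTreat, adjusted p = 0.310).

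Histone genes outside the clusters give polyadenylated RNA throughout the cell cycle and were read for comparison. H1F0, the linker histone H1.0, measured 694 ± 19.7 CPM in control, 154 ± 6.41 in siNAE1, 259 ± 11.6 in siUBE2M (n = 3 each) and 532 ± 22.9 in siURM1 (n = 2). Its log2 fold change was -2.17 in siNAE1 (edgeR adjusted p = 1.42e-23), -1.42 in siUBE2M (adjusted p = 6.65e-19) and -0.38 in siURM1 (adjusted p = 1.12e-05). H1F0 and HIST1H1C thus had opposite signs in siNAE1 and siURM1 and the same sign in siUBE2M. H3F3A, which encodes the variant H3.3, rose by 0.48, 0.43 and 0.92 (adjusted p = 5.88e-09, 1.10e-07 and 1.11e-13), and H2AFY2, a macroH2A gene, fell by 0.89, by 0.78 and by 0.85 (adjusted p = 6.45e-13, 2.15e-11 and 6.97e-11). H3F3A and H2AFY2 were picked after their values were seen. Of the 11 tested of 12 such genes, H1F0 alone was called, lower in siNAE1 and siUBE2M, where 8.61% and 3.89% of all genes were called lower. At the adjusted p alone, 2 of these genes were higher and 3 lower in siNAE1, 5 and 4 in siUBE2M, and 3 and 3 in siURM1, against 54.7%, 45.3% and 41.6% of all genes in either direction.

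Of 22 histone chaperone genes, 1 was called, NAP1L1, an H2A-H2B chaperone, at -1.17 in siURM1 (edgeR adjusted p = 1.64e-14), where 4.73% of all genes were called lower, and this call was lost when tested against the 2-fold threshold itself (glmTreat, adjusted p = 0.121). At the adjusted p alone, 10 chaperone genes were higher and 8 lower in siNAE1, 11 and 3 in siUBE2M, and 2 and 13 in siURM1, and the list's medians were 0.12, 0.15 and -0.28. The S phase list, which also holds SLBP and CASP8AP2, had 42 tested genes, with 10 higher and 18 lower at the adjusted p in siNAE1, 17 and 11 in siUBE2M, and 3 and 21 in siURM1. Over all genes, for each of these lists, 27.6% passed higher and 27.1% lower in siNAE1, 22.7% and 22.6% in siUBE2M, and 20.8% in each direction in siURM1. Its medians were -0.10, 0.09 and -0.21, and WDR76 at -1.01 in siURM1 was its 1 called gene (adjusted p = 2.44e-10). The G2/M list of 54 genes had medians of 0.02, 0.30 and -0.07. It had 5 genes called higher in siUBE2M, among them CDCA2 at 2.03 and MKI67 at 1.44 (adjusted p = 3.59e-16 and 3.19e-17), and 3 higher and 2 lower in siNAE1, where the shares of all genes were 3.22% higher in siUBE2M and 5.3% higher and 8.61% lower in siNAE1. At the adjusted p alone, 20 G2/M genes were higher and 18 lower in siNAE1, 36 and 7 in siUBE2M, and 12 and 20 in siURM1. The part of the cell cycle in the member values was not tested.

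RNAs without a poly(A) tail were read as a sign of what the selection let through. Of 20 such genes 3 passed the low-count filter, and RN7SK, RN7SL1, RMRP and RPPH1 are listed at 0 in every library. The list summed to between 48.5 and 82.7 CPM in control, 34.8 and 182 in siNAE1, 33.7 and 161 in siUBE2M, and 50.9 and 60.8 in siURM1. The ranges of the groups overlapped. The log2 fold changes of the 3 tested genes, RN7SL2, SNORD17 and SNORA73B, were positive in siNAE1 (0.41, 1.21 and 0.57) and in siUBE2M (0.33, 0.71 and 0.17), and -0.19, -0.49 and 0.06 in siURM1. SNORD17 was called higher in siNAE1 against control (edgeR adjusted p = 0.0010) and against siURM1 (1.69, adjusted p = 0.000359), and higher in siUBE2M than in siURM1 (1.20, adjusted p = 0.0115). The part of the poly(A) selection in the member values was not tested.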

How the data were processed

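Poly(A)-selected RNA of 11 HEK293T libraries was sequenced as paired 150-base reads after a strand-marking preparation. Per the submitters' processing notes, the authors used fastp for trimming, HISAT2 2.0.5 for alignment (GRCh38) and featureCounts 1.5.0-p3 for counting, and the deposited table holds these gene counts, gene lengths and the FPKM values the authors derived from them. The strand setting and the treatment of reads that match several genes are not given in the sources used here, so overlapping and near-identical histone genes are uncertain. No column of the authors' own comparisons was used.

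Counts were tested with edgeR 4.0.16 in R 4.3.3 (filterByExpr, TMM scaling, quasi-likelihood test, all 4 groups in one fit, n = 3, 3, 3 and 2). p-values were adjusted by Benjamini-Hochberg over 18368 genes, and a call needed an adjusted p under 0.05 and a log2 fold change of at least 1. The common biological coefficient of variation was 7.06%. CPM used TMM-scaled library sizes, and an SE is the log2 fold change divided by the square root of F. The fit was tested on simulated counts. Replicate numbers did not pair libraries: over 15 same-number pairs the correlation of deviations ran from -0.066 to 0.079, with 0 over 0.1.

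Named were the called members (up to 10 per comparison with control and 5 between knockdowns), the 8 of highest mean FPKM, the H1 genes, the polyadenylated list, 7 processing and transcription factors, and called genes of the other lists. Members and lists were chosen with earlier results of these data known. Alternatives were DESeq2 1.42.0, other scalings, filters, thresholds and fits, limma 3.58.1 on log2(FPKM + 1) or log2(FPKM + 0.1), and leaving out each library. Stem-loops were read from GENCODE v44 and GRCh38, promoters from RefSeq. A span that differs between the deposited annotation and GENCODE v44 was kept as deposited, and 6 of 47 members had the same span in both.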

Additional observations from a re-analysis of the deposited data

Results flagged for a closer look

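The following members differed between 2 knockdowns by the direct comparison of those groups (edgeR, adjusted p under 0.05 and at least 2-fold). HIST1H1C was 1.55 higher on the log2 scale in siNAE1 than in siUBE2M and stood at -1.50 in siUBE2M against siURM1, and both calls held in all 23 alternatives. HIST1H4H was 1.72 higher in siNAE1 than in siUBE2M and stood at -1.28 in siUBE2M against siURM1, where the calls were lost with a test against the 2-fold threshold and on log2(FPKM + 1). HIST1H4E was 1.39 higher in siNAE1 than in siUBE2M and stood at -1.94 in siUBE2M against siURM1, calls that were lost in 7 and 3 of 22 alternatives. HIST1H3E was 1.11 higher in siNAE1 than in siURM1, a call lost in 3 of 23 alternatives. HIST1H3B stood at -1.53 in siNAE1 against siURM1 and at -1.61 in siUBE2M against siURM1, each lost in 3 of 22 alternatives, and its counts were low in every group.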

How the results depend on the processing

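Of the 18 calls of members, in comparisons with control and between knockdowns, 4 held in every alternative, HIST1H2AC in siUBE2M, HIST3H2A in siURM1 and HIST1H1C in siUBE2M against each other knockdown, and 14 were lost in at least 1. None of 74 named comparisons with an adjusted p under 0.05 changed direction over 1695 alternative values. They were picked by that adjusted p and refitted on largely the same libraries, so a change of direction was unlikely from the start. With DESeq2 the counts of called members stayed within 1.5 times those of edgeR in all 6 comparisons.

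Given as siNAE1, siUBE2M and siURM1 against control, then siNAE1 against siUBE2M, siNAE1 against siURM1 and siUBE2M against siURM1, the counts of called members were 1, 5, 3, 3, 2 and 4. Testing against the 2-fold threshold itself gave 0, 1, 1, 1, 0 and 1 (edgeR's glmTreat). Without a fold threshold they were 7, 11, 9, 11, 6 and 8. On log2(FPKM + 1) with limma, which compresses low genes, HIST1H2BK was called in siNAE1, HIST1H2AC in siUBE2M, and HIST3H2A and HIST1H3B in siURM1 against control. Between knockdowns the counts were 1 in siNAE1 against siUBE2M, 1 in siNAE1 against siURM1 and 2 in siUBE2M against siURM1. Requiring 10 counts in every library left 15 members, with 3 called in siUBE2M against control, 1 in siNAE1 against siURM1 and 2 in siUBE2M against siURM1. HIST1H2BK was then still called in siNAE1, and HIST3H2A and HIST1H3E in siURM1, where HIST1H3B did not reach the filter. Without a filter on low counts 3 were called in siNAE1 against control, HIST1H2AH and HIST2H4A being added, and HIST2H4A was also added in siUBE2M. Leaving out 1 library gave 1 to 3 for siNAE1, 4 to 5 for siUBE2M and 3 for siURM1 against control, and 2 to 4, 1 to 3 and 3 to 5 between knockdowns. The added calls in siNAE1 were HIST1H2AG, HIST2H4A and HIST3H2A, or, without a siURM1 library, HIST1H2AH and HIST3H3, where the low-count filter admits more genes. HIST2H4A was added in siUBE2M without control replicate 1 or 2. In siURM1, leaving out siURM1 replicate 2 lost HIST1H3B and added HIST1H2BN (-1.08, edgeR adjusted p = 0.0022). A lone siURM1 library was assumed to vary like the other groups.

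The median log2 fold change of the members in siURM1 was 0.12 with total-count scaling, 0.065 with 10 counts in every library, 0.14 on log2(FPKM + 1), 0.26 on log2(FPKM + 0.1) and 0.32 with a replicate block. Leaving out 1 library gave 0.080 to 0.33 in siURM1, -0.60 to -0.13 in siUBE2M and -0.10 to 0.13 in siNAE1. Under the replicate block the counts of called members were 1, 5, 3, 4, 2 and 5, and since numbers did not pair libraries (3 of 11 correlated best with their own number) the block says nothing of a weaker effect.

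The log2 ratio of summed member CPM in siNAE1 was 0.40 with total-count CPM, 0.75 as FPKM, 0.82 in models under 1000 bases, 0.079 in longer ones and 0.19 without HIST1H2BK and HIST3H2A. In siUBE2M it was -0.0004 as FPKM, 0.097 in the shorter models, which reversed its sign, -0.45 in the longer and -0.48 without those genes. In siURM1 it was 0.31 with total-count CPM, 0.48 as FPKM, 0.74 in the shorter models, -0.13 in the longer, which reversed its sign, and 0.058 without those genes. The cause was not tested. The alternative without those genes was chosen after seeing the data. Leaving out 1 library gave 0.48 to 0.55, -0.18 to -0.10 and 0.35 to 0.44. The exact commonest stem-loop was held by 26 members in place of 46. Of the 51 members 25 had too few counts for the test, which limits every count above.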
